A study of Mus musculus with 9 samples.

Results

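Leukemic cells that carry the surface features of granulocyte-macrophage progenitors (L-GMP) were compared with normal granulocyte-macrophage progenitors (GMP) over all genes measured. The comparison used the 3 arrays titled L-GMP and the 3 titled normal GMP or GMP, which are 6 of the 9 arrays of the series. The series concerns leukemia driven by MLL-AF9, a fusion protein, in the mouse. Its other 3 arrays, titled AKLG with the source name L-GMP, were taken as cells propagated from L-GMP in culture. Fold changes rest on the 6 arrays alone, but all 9 entered the filter on dim signals and the spread behind each SE and p-value. All 6 samples were sorted cells from bone marrow, L-GMP from leukemic marrow and GMP from normal marrow. The sources used here do not give the strain, age or sex of the mice, the promoter or vector that drives MLL-AF9, the sorting gate, or how many animals or leukemias stand behind an array. Since nothing states that the arrays of a group come from separate mice, a p-value here reflects array-to-array spread alone, part of which can be technical. With 3 arrays a group, the precision of every value is limited.

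GMP are committed progenitors that give rise to neutrophils and monocytes and no longer make red cells or lymphocytes. They are normally short-lived, and their program is set by transcription factors such as PU.1 and C/EBP alpha. MLL fusion proteins join the DNA-binding part of a histone methyltransferase to partners that drive transcript elongation, and they hold genes of immature blood cells active.

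Each array gave 22690 probe set signals, of which 14578 passed the filter on dim signals, and these stood for 8965 named genes. Signals are in the arbitrary units of the deposited table, and values below 62.4 were treated as a floor. Correlations of log2 signals were 0.977 to 0.991 between arrays of one group and 0.916 to 0.928 between groups. Between 47 and 251 probe sets differed at least 2-fold within a pair of arrays of one group, against 1098 to 1322 in a pair from different groups. The median SD of log2 signals within a group was 0.148 for L-GMP and 0.110 for GMP. The Xist probe set that stood for the gene gave 6835 to 8287 on all 6 arrays, and another gave 6350 to 7777. A dimmer Xist probe set gave 1774, 2255 and 1867 in L-GMP against 1112, 1234 and 1374 in GMP. The 4 probe sets of the Y-linked genes Eif2s3y and Kdm5d stayed at or below 58.9. In both groups Xist was thus far above the floor and these Y-linked genes were below it.

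All 10 marker genes listed for GMP were above the floor on every array of both groups, with 2 called higher and 3 lower in L-GMP. This cannot test the label GMP, since the floor is only the 25th percentile of all values. Some listed markers of B cells (Cd79a, Pax5), T cells (Cd3e, Cd4) and red cells (Hba-a1, Alas2) were also above it on every array, though others were not. The summed signal of the 10 GMP markers was 33471 to 41314 in L-GMP and 42720 to 43564 in GMP. Spi1, which encodes PU.1, rose in L-GMP: its signal was 1909, 1616 and 1696 against 772, 871 and 829 in GMP, a log2 fold change of 1.08 (SE 0.12, adjusted p = 0.000129 in limma). Cebpa, which encodes C/EBP alpha, fell: its signal was 419, 280 and 317 against 955, 1206 and 1347, a log2 fold change of -1.79 (SE 0.21, adjusted p = 0.000160). The L-GMP and GMP arrays did not overlap for either factor. Cd34, another of the listed GMP markers, also fell, with signals of 189, 294 and 436 against 631, 495 and 578 (adjusted p = 0.0154 in limma). Its call was lost without GMP array 1 (0.0575) or GMP array 3 (0.0571). Of the other listed GMP markers, Fcgr3 was called higher and Ctsg lower.

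Markers of other blood cells moved with the groups in part. In the monocyte and macrophage list, 2 of 4 tested genes rose, and the summed signal of its 6 measured genes was 7923 to 9129 in L-GMP against 6018 to 7122 in GMP. Adgre1, which encodes the macrophage antigen F4/80, had signals of 3044, 3423 and 2749 against 387, 361 and 376. Cd68, a lysosomal membrane protein of macrophages, had signals of 380, 358 and 377 against 103, 102 and 89.3. Csf1r, the brightest gene of the list in both groups, was lower on every L-GMP array but did not pass the test. Its signals were 4176, 5124 and 4721 against 5322, 6318 and 5661. Cd14, at 152, 91.4 and 117 against 67.1, 203 and 164, did not pass it either. C1qa and Cx3cr1, markers of mature macrophages and monocytes, were below the filter.

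In the mast cell, eosinophil and basophil list, Prg2, a major basic protein of eosinophil granules, rose. Its signal was 2600, 2984 and 2425 against 410, 156 and 98.7. The basophil protease Mcpt8 fell, with signals of 102, 49.2 and 63.4 against 173, 152 and 152. Epx and Fcer1a, which define eosinophils and mast cells or basophils, were at the floor on all 3 L-GMP arrays. Cpa3 varied among the L-GMP arrays, with 245, 854 and 2206 against 579, 624 and 640. Gata2 had 539, 890 and 996 against 594, 647 and 604, and neither gene passed the test. The summed signal of the list was 3686 to 5889 against 1722 to 1938, with Prg2 the largest part of the difference. In the stromal and endothelial list only Vcam1, an adhesion molecule also made by macrophages, rose, with signals of 4026, 3175 and 2894 against 666, 587 and 676. Pecam1 was at the floor on all 6 arrays, and the summed signal was 3540 to 4722 against 1169 to 1276, with Vcam1 most of the difference. The neutrophil list had 0 of 5 tested genes past the threshold, with sums of 17811 to 35663 against 8976 to 22419 that overlapped between the groups.

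The B cell, T and NK cell, and erythroid and megakaryocyte lists had 0 genes past the threshold, and the dendritic cell list had 1, H2-Ab1, lower in L-GMP. Their summed signals were 1915 to 1982 against 1859 to 2007, 1489 to 1637 against 1419 to 1602, 1299 to 1525 against 1493 to 1701, and 824 to 1020 against 1019 to 1100, in that order of lists. The part that cells of another type had in any single gene's difference was not tested. In bulk samples, fewer cells of a type and less RNA per cell cannot be told apart.

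How large were the differences, and how were they spread over the genes? L-GMP and GMP differed in many genes and mostly by small amounts, in both directions to a similar extent. Of the 8965 genes tested, 1176 (13.1%) were called higher in L-GMP and 1150 (12.8%) lower, at an adjusted p under 0.05 in limma. Of the 14578 probe sets, 3777 (25.9%) were called. The median log2 fold change over all genes was -0.01, and the 5th and 95th percentiles were -0.75 and 0.86. In 4203 genes (46.9%) the 3 L-GMP arrays lay all above or all below the 3 GMP arrays. The called genes had a median fold of 1.58, and 40.8% of them differed by less than 1.5-fold. The smallest called fold was 1.06.

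A minority of genes made up the long tails. At least 2-fold differences were called for 325 genes higher (3.63%) and 242 lower (2.7%), and at least 4-fold for 70 higher and 68 lower. At least 8-fold differences were called for 23 genes higher and 27 lower, and at least 16-fold for 6 and 6. The 4 genes past 32-fold, Hpgd, Mycn, Dsp and Penk, were all higher in L-GMP. Of the genes called at least 4-fold apart, 26 of the higher ones and 35 of the lower ones had the lower group at the floor on at least 1 array. Folds here are ratios of geometric means after flooring, and for these genes they are lower bounds of the ratio without the floor.

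L-GMP array 1 most often had the highest signal of its group in the genes that rose. Among the 325 genes called at least 2-fold higher, L-GMP array 1 was the highest of its group for 206, array 3 for 71 and array 2 for 48. Among the 242 genes called at least 2-fold lower, L-GMP arrays 1, 2 and 3 were the lowest for 93, 76 and 73. After flooring, all 3 L-GMP arrays lay within 2-fold of one another for 291 of the 325 genes and for 220 of the 242. In 65 of the 242, 2 or more L-GMP arrays were at the floor, which hides their spread. Such ties were counted for the first of the tied arrays. Cd300lf, an inhibitory receptor of myeloid cells, was among the genes with a wide spread, with L-GMP signals of 991, 381 and 229 against 69.8, 29.2 and 41.7 in GMP. Cdkn1c, an imprinted inhibitor of cyclin-dependent kinases, had 965, 357 and 192 against 44.2, 49.8 and 52.3. Without L-GMP array 1, 45.4% of the called probe sets were higher, against 51.5% with it.

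**Figure D1:**
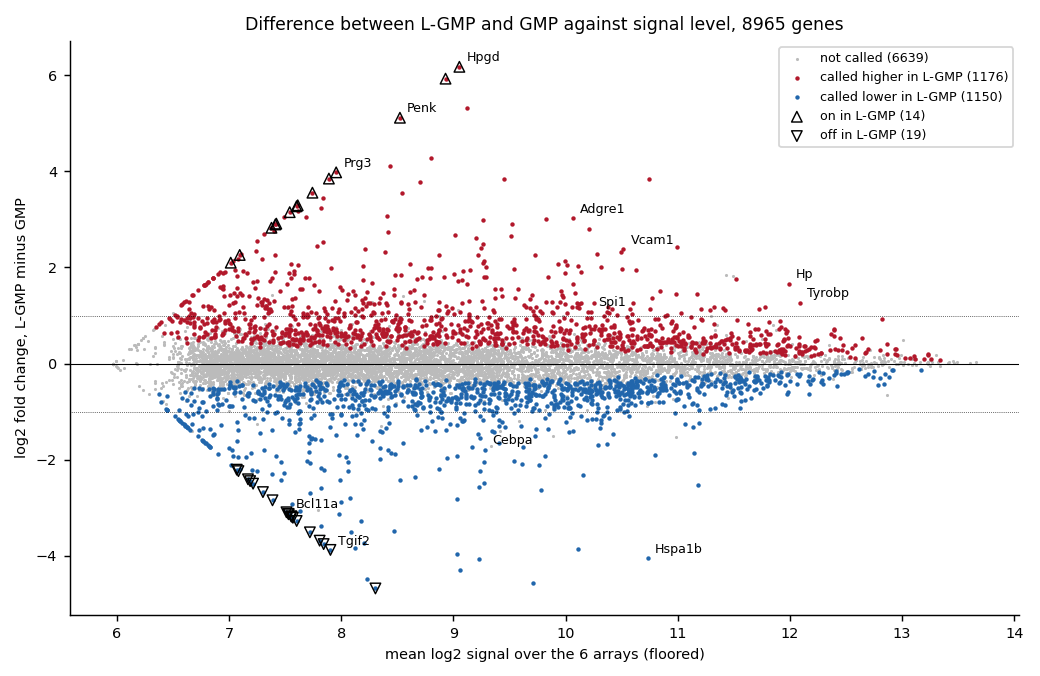
Difference between the groups for 8965 genes (points): the horizontal axis gives the mean log2 signal over the 6 arrays after flooring, the vertical axis the log2 fold change of L-GMP minus GMP, and dotted lines mark a 2-fold difference. Genes called higher (red, 1176) and lower (blue, 1150) spread over all signal levels, and the triangles mark the 14 genes on and 19 genes off in L-GMP, which lie on the edge that the floor sets.

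Did the size and number of differences depend on the signal level? Calls were more frequent among bright probe sets and larger among dim ones. With the tested probe sets split into 4 equal bins by mean signal, with median signals of 128, 233, 510 and 1805, 18.9%, 23.2%, 26.5% and 35.0% were called. The median fold of the called probe sets went the other way, from 1.87 in the dimmest bin through 1.69 and 1.64 to 1.41 in the brightest. Over all probe sets of a bin, called or not, the median fold was 1.17 to 1.19 in each. In the dimmest bin 56.5% of the calls were higher in L-GMP, and in the brightest 48.5%. The bins were formed on the 6 arrays, and bins formed on the GMP arrays alone gave 20.9%, 21.4%, 25.1% and 36.2% called.

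The genes of highest signal were largely shared. Of the 100 genes with the highest mean signal in each group, 82 were the same, and of the 18 found only in the L-GMP list 15 were called higher. Hp, haptoglobin, a plasma protein that binds free hemoglobin and is stored in neutrophil granules, had signals of 7460, 6976 and 7311 against 2561, 2203 and 2109, a fold of 3.17 (log2 1.67, SE 0.07, adjusted p = 1.68e-07). Tyrobp, the adaptor DAP12 of activating immune receptors, had 6890, 6701 and 6638 against 2923, 2779 and 2719, a fold of 2.40. Lgals1, galectin-1, had 9674, 9938 and 10275 against 5102, 5524 and 5130, a fold of 1.90. In each of these 3 genes the lowest L-GMP array lay well above the highest GMP array.

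The remaining genes of this list that rose included structural and metabolic genes of high signal. Pgd, a dehydrogenase of the pentose phosphate pathway, was 1.65-fold higher, Actb, beta-actin, 1.62-fold, Smim14 1.54-fold, Emp3, a membrane protein, 1.49-fold, and Tmsb4x, the actin-binding thymosin beta-4, 1.45-fold. Of the 18 genes found only in the GMP list, 9 were called lower. Hspa1b, an inducible heat shock protein, had the largest fall, with signals of 891, 221 and 370 against 4251, 8880 and 8858. The other falls were small: Ybx3, an RNA-binding cold shock protein, was 1.37-fold lower, the granule protease Ctsg 1.36-fold, the mitochondrial dehydrogenase Hadh 1.34-fold, Rpn1 1.23-fold, Nme2 1.21-fold, Qdpr 1.20-fold and Nop10 1.15-fold. The call of Rpn1 was lost without L-GMP array 1, GMP array 2 or GMP array 3, that of Nop10 without any array except L-GMP array 2, and that of Qdpr without L-GMP array 3, GMP array 2 or GMP array 3. With shared-binding probe sets left out Rpn1 (adjusted p = 0.629) and Qdpr (0.937) were not called. With adjusted p of 0.0199, 0.0396 and 0.0161 in limma they stood near the threshold.

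Which genes were switched on or off? A gene was counted as on in L-GMP when it was called, all 3 L-GMP signals exceeded 239, the 60th percentile of all values, and all 3 GMP signals were at or below the floor of 62.4; off was the reverse. By this definition 14 genes (0.156%) were on and 19 (0.212%) were off. The mean signal in L-GMP of the genes that were on ran from 270 to 4517 with a median of 628, and the mean signal in GMP of those that were off ran from 289 to 1602 with a median of 552. Their folds are lower bounds set by the floor.

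The promoters of the brightest switched genes show how much their sequence differs. The 200 bases before the start of the brightest pair of genes on each side that have an entry in RefSeq's promoter table (GRCm38.p6) are given on the gene's strand, with each CpG in capitals. Genes without an entry were passed over. Hpgd, which encodes the enzyme that inactivates prostaglandin E2, lies at chr8:56294352-56294551 on the plus strand. Mycn, which encodes a Myc family transcription factor, lies at chr12:12941837-12942036 on the minus strand. Tgif2, a homeobox repressor of TGF-beta responses, lies at chr2:156839807-156840006 on the plus strand; most of this stretch falls inside the span RefSeq lists for the gene, whose first base precedes the start used by the promoter table. Gja1, which encodes the gap junction protein connexin 43, lies at chr10:56377100-56377299 on the plus strand.
Hpgd: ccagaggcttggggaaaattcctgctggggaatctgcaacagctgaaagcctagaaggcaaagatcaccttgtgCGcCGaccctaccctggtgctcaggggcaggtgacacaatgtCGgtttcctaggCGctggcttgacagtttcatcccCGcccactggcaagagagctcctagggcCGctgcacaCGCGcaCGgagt
Mycn: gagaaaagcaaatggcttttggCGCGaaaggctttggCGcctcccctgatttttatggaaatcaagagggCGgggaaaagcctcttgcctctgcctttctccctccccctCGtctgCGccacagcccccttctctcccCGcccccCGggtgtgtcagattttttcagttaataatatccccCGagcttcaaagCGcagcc
Tgif2: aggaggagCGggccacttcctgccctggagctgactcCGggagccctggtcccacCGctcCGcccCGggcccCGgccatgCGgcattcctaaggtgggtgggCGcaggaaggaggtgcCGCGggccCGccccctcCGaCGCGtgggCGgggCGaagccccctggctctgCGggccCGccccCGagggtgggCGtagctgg
Gja1: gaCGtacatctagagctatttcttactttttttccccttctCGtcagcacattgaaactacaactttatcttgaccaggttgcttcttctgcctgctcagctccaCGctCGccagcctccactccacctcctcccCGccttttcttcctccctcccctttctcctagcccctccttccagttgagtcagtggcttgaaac
The Tgif2 stretch held 20 CpG, against 9 in Hpgd, 10 in Mycn and 5 in Gja1, and its GC content was 77.5% against 59.5%, 56% and 51.5%. Their ratios of observed to expected CpG were 0.667, 0.508, 0.663 and 0.500.

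The genes that were on spanned enzymes, signalling proteins and a homeobox gene. Prg3, a major basic protein homolog of eosinophil granules, had signals of 849, 960 and 1175 in L-GMP and of -8.79, -22.7 and -12.6 in GMP, at least 15.8-fold higher. Sgip1, which encodes an endocytic adaptor, had 952, 831 and 924 against 44.2, 57.9 and 55.4, at least 14.4-fold higher. Pbx3, a homeobox cofactor of Hox and Meis proteins, had 678, 799 and 733 against 35.6, 52.2 and 47.1, at least 11.8-fold higher. In these 3 genes the L-GMP arrays lay within 1.5-fold of one another.

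Enzymes of small molecules were among the genes that were on, although the arrays of L-GMP were further apart in them. Ampd3, an AMP deaminase, had 906, 567 and 448 against 37.8, -7.82 and 8.86, at least 9.81-fold higher. Aspa, which splits N-acetylaspartate, had 425, 795 and 507 against 31.9, 38.4 and 41.8, at least 8.89-fold. Aldh3b1, an aldehyde dehydrogenase, had 624, 426 and 391 against 59.7, 49.4 and 58.1, at least 7.53-fold. Mycn, described above by its promoter, ranged over 5772, 4182 and 2286 in the L-GMP arrays and stayed at 30.3 or less in GMP.

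The remaining genes included a kinase and a collagen. Dbndd2, a dysbindin-related protein, was at least 9.67-fold higher, Dapk2, a calcium-dependent death-associated kinase, at least 7.44-fold, and Col19a1, a collagen chain, at least 7.10-fold. Hcls1, a cortactin-like protein of blood cells, and Hacd4, an enzyme of very long fatty acids, were the dimmest at at least 4.79-fold and 4.29-fold. Hpgd and Penk complete the 14. In the 3 arrays of cultured cells, 5 of the 14 genes were above 239 on all, 1 was at the floor on all and 8 were mixed or between.

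The genes that were off included receptors, small GTPases and transcriptional regulators. Tgif2 had signals of 52.3, 22.0 and 48.1 in L-GMP against 851, 993 and 916 in GMP, at least 14.7-fold lower. Rab38, a GTPase of lysosome-related organelles, had 52.9, 52.7 and 55.1 against 851, 822 and 859, at least 13.5-fold lower. Nrp1, a co-receptor for semaphorins and VEGF, had 29.8, 33.5 and 27.2 against 634, 516 and 506, at least 8.79-fold lower. Bcl11a, a zinc finger repressor active in early lymphoid and stem cells, had 45.4, 30.3 and 35.0 against 551, 556 and 529, at least 8.73-fold lower. The 3 GMP arrays were close together in each. By the definition of off, no L-GMP array rose above the floor.

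A related pair, Ctla2a and Ctla2b, was among the genes that were off. Ctla2a, an inhibitor of cysteine proteases, was at least 8.54-fold lower and its paralog Ctla2b at least 6.38-fold, and Tmem176a, a membrane protein of myeloid cells, at least 9.68-fold. Probes for such near-identical copies may bind both transcripts. Bex1, Dmkn and Lzts2 were at least 9.24-fold, 9.10-fold and 9.05-fold lower. Ppic, a secretory pathway cyclophilin with the highest GMP signal of the 19, was at least 25.6-fold lower. Without GMP array 2 (adjusted p = 0.0592 in limma) or GMP array 3 (0.0746) another Tmem176a probe set stood for the gene, and it was not called.

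For some of the genes that were off, the probe set can also bind related transcripts. These were Gja1 (at least 12.9-fold lower), Marcks, an actin-linked substrate of protein kinase C (at least 11.4-fold), Ltbp3, which holds latent TGF-beta in the matrix (at least 7.19-fold), and F2r, the thrombin receptor (at least 5.65-fold). Ablim1, Myct1, Ttpa and Tubb6 were the dimmest, and Tubb6, a tubulin, was at least 4.62-fold lower. In the cultured cells 3 of the 19 were above 239 on all arrays, 5 at the floor on all and 11 mixed or between. With the floor raised to the 40th percentile 29 genes were on and 36 off, so the numbers depend on the definition. Leaving out single arrays gave 14 to 20 and 18 to 27. With shared-binding probe sets left out 14 were on and 15 off.

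**Figure D2:**
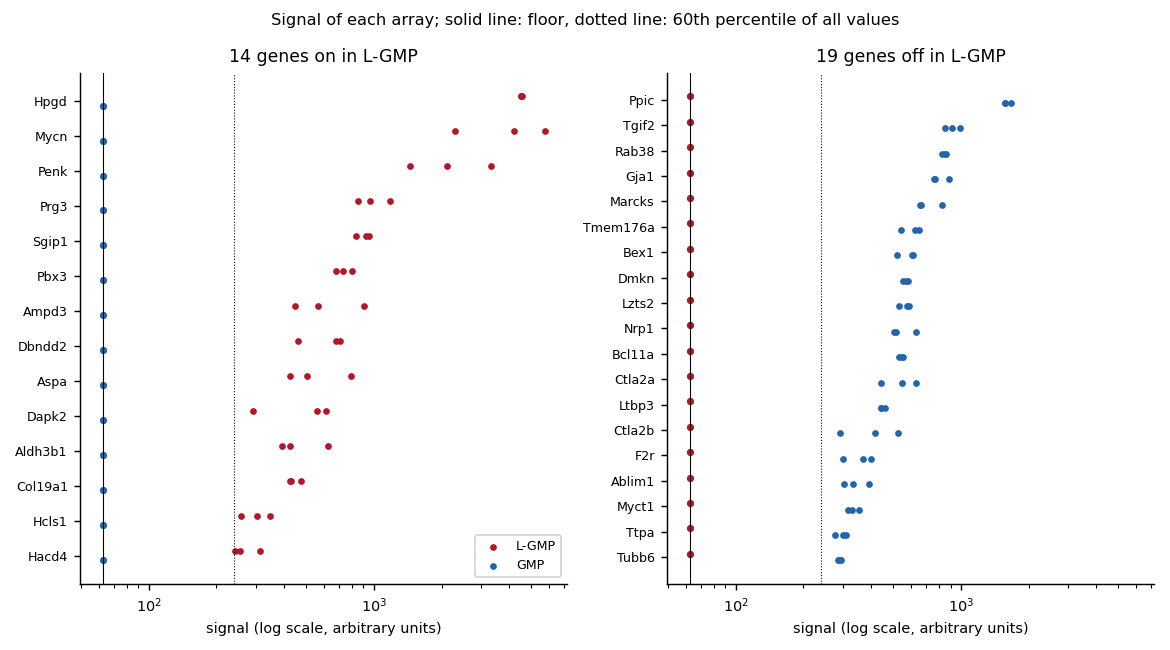
Signal of each array (points, log scale, arbitrary units, values under the floor drawn at it) for the 14 genes on in L-GMP (left) and the 19 off (right), with L-GMP in red and GMP in blue. The solid line is the floor of 62.4 and the dotted line the 60th percentile of 239; the brightest gene on, Hpgd, reached a mean of 4517 and the brightest gene off, Ppic, 1602.

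Did the promoters of the changed genes differ from those of other genes? Of the tested genes, 7256 had a promoter in the RefSeq table, here 250 bases before to 50 after the start, including 259 called at least 2-fold higher and 205 at least 2-fold lower. CpG-poor promoters were more frequent among the strongly changed genes: a ratio of observed to expected CpG of at least 0.6 was found in 47.1% of those higher and 62.0% of those lower, against 69.4% of all. Seen from the other side, 9.68% of the genes with a lower ratio were called at least 2-fold apart and 4.94% of the genes with a higher one. For 4-fold differences the shares were 2.79% and 0.854%, and for genes on or off 0.811% and 0.139%. Median GC content differed little, at 59.7%, 58.7% and 60.3% for the higher, lower and all genes. Among genes called at any fold, 66.2% of those higher and 75.6% of those lower had a ratio of at least 0.6.

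Motif matches, on either strand and as exact letters, are a description and show no binding. The ETS motif CCGGAAG was in 12% of the promoters of genes at least 2-fold higher and in 4.39% of those at least 2-fold lower, against 18.0% of all. Among genes called at any fold the shares were 20.2% and 18.4%. The AP-1 motif TGANTCA was in 8.11% and 11.7%, against 5.35% of all, and in 5.79% and 6.46% of genes called at any fold. The C/EBP motif TTNNGNAA was in 32.8% and 40%, against 31.6% of all. The E-box CACGTG was in 11.6% and 13.7%, against 9.88%, and the Meis and Tgif motif TGACAG in 22.4% and 16.6%, against 17.1%. YY1 and NRF1 motifs were rarer in the strongly changed genes, at 1.54% and 1.46% against 4.82% for AAGATGGC and at 2.32% and 2.93% against 5.49% for GCGCATGC. Among genes called at any fold they were in 4.03% and 4.95%, and in 5.58% and 5.49%. The heat shock element GAANNTTC was in 7.72% and 8.78%, against 5.57%. The ETS, NRF1 and E-box letters hold a CpG themselves. These are 8 of the 19 motifs searched, and they were picked after their values were seen.

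**Figure D3:**
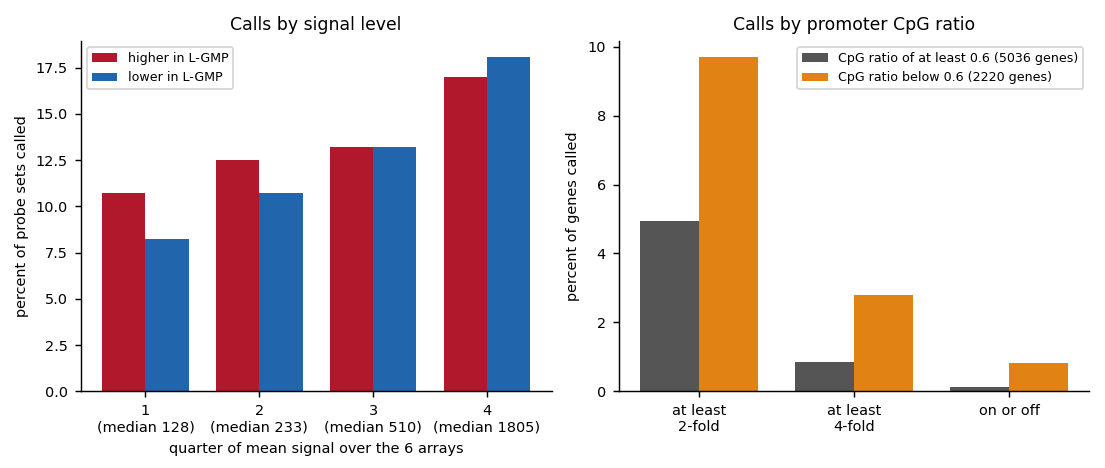
Left: percent of probe sets called higher (red) and lower (blue) in L-GMP in each of 4 equal bins of mean signal over the 6 arrays. Right: percent of genes called at least 2-fold apart, at least 4-fold apart, and on or off, for promoters with a ratio of observed to expected CpG of at least 0.6 (grey, 5036 genes) and below it (orange, 2220 genes); the orange bars are the taller ones at 9.68%, 2.79% and 0.811%.

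Which functional classes moved? The genes were sorted by name into 57 classes with 2747 tested members, of which 347 were called higher and 356 lower. More members rose than fell in 28 classes and more fell than rose in 24. The counts are read against the shares of all tested genes, 13.1% higher and 12.8% lower, and the median of -0.01. The classes farthest from these shares were the Fc and paired immune receptors on the higher side and the mitochondrial protein import genes on the lower side. No class was tested as a set.

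**Figure D4:**
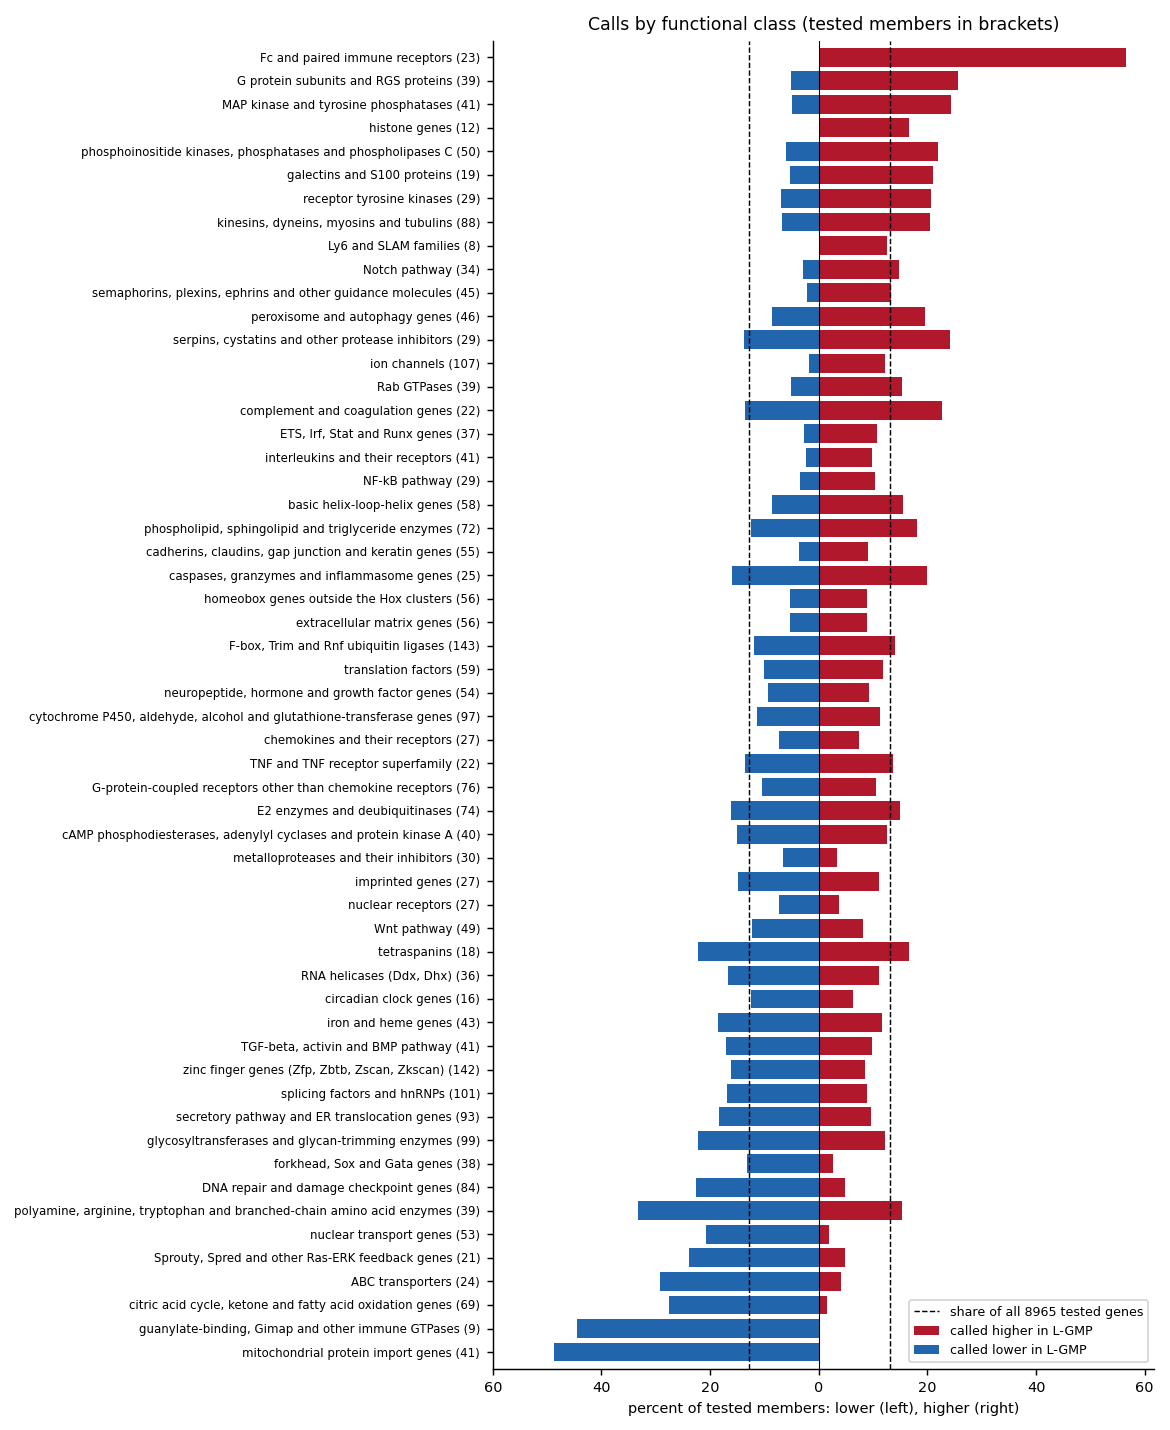
Percent of the tested members of 56 of the 57 classes called higher in L-GMP (red, to the right) and lower (blue, to the left), ordered by the difference of the 2 shares, with the number of tested members in brackets. Dashed lines mark the shares of all tested genes, 13.1% and 12.8%; the top bar is the Fc and paired immune receptors (13 of 23 higher) and the bottom bar the mitochondrial protein import genes (20 of 41 lower).

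Fc and paired immune receptors of innate immune cells signal through short tyrosine motifs, or through adaptors that carry them. Of 23 tested genes of this class 13 rose, 0 fell and 10 did not pass the test, with a median log2 fold change of 0.62. Pilrb1, an activating paired receptor, had signals of 2501, 1783 and 1185 in L-GMP against 266, 199 and 196 in GMP, a fold of 7.99 (SE 0.33 on the log2 scale, adjusted p = 0.000104 in limma). Its inhibitory partner Pilra had 525, 275 and 193 against 33.6, 40.5 and 48.2, at least 4.86-fold higher. Cd33, a sialic acid receptor of myeloid progenitors, had 1775, 1577 and 1150 against 358, 399 and 369, a fold of 3.94. L-GMP array 1 was the highest in all 3. That the groups did not overlap follows from the choice of genes to name.

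Adaptors of these receptors are members of the same class and were among its genes that rose. Fcer1g, the common Fc receptor gamma chain, had signals of 2920, 3120 and 3261 against 1236, 1047 and 1000, a fold of 2.84 (adjusted p = 3.92e-05 in limma), and Hcst, the adaptor DAP10, had 519, 367 and 386 against 187, 159 and 159, a log2 fold change of 1.32. Sirpa, an inhibitory receptor for CD47, and Siglecf, a sialic acid receptor of eosinophils and some macrophages, were 2.21-fold and 2.78-fold higher. These 4 genes and Cd300a, 1.42-fold higher, were named after their values were seen. The low-affinity Fc gamma receptors lie side by side and rose by smaller amounts: Fcgr2b, an inhibitory receptor, by 1.73-fold, Fcgr4 by 1.70-fold and Fcgr3, which helps define GMP on sorting, by 1.54-fold. The call of Fcgr4 was lost without L-GMP array 1 (adjusted p = 0.0542) or GMP array 2 (0.0636). Leaving out each array in turn gave 12 or 13 genes higher. The monocyte and macrophage markers Adgre1 and Cd68 moved the same way, as given above, and their part in this class was not tested.

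**Figure D5:**
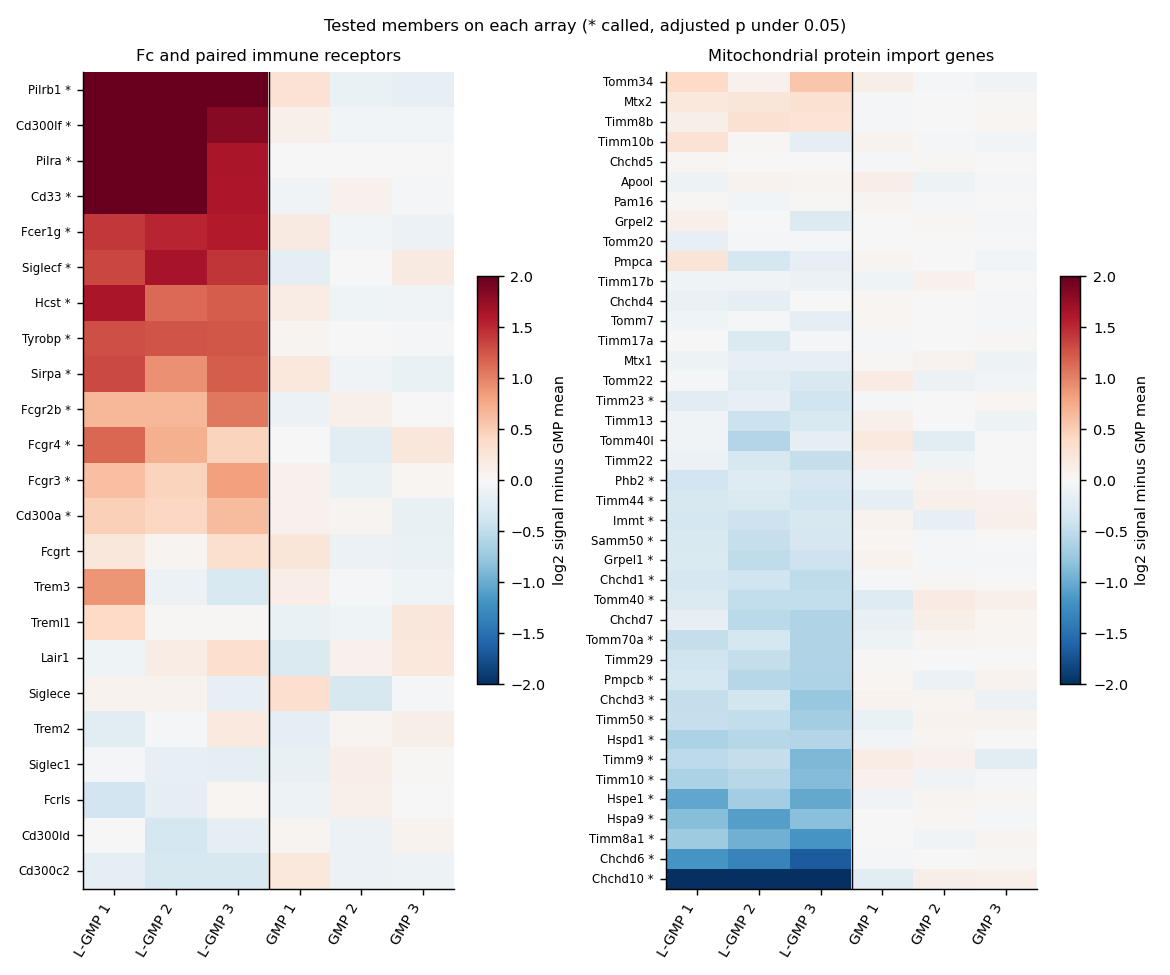
Log2 signal of each tested member of the 2 classes minus its mean in GMP, on each of the 6 arrays (columns, L-GMP left and GMP right of the line), with red for above and blue for below and the scale ending at 2 either way. Stars mark called genes: 13 of 23 Fc and paired immune receptors, all higher, and 20 of 41 mitochondrial protein import genes, all lower.

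Motor and cytoskeletal genes rose more often than they fell. Of 88 kinesins, dyneins, myosins and tubulins 18 rose and 6 fell. Myo1f, a myosin of white cells, was 2.40-fold higher, Myo7a 3.42-fold and Dnah8 3.48-fold. Without GMP array 1 or GMP array 3 the genes that fell were 3.

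Signalling enzymes beneath receptors showed the same lean. Of 39 G protein subunits and RGS proteins 10 rose and 2 fell (1 without any one GMP array), with a median of 0.18, and the largest rise was Gpsm3, a regulator of G protein alpha subunits, at 2.58-fold with signals of 1417, 1331 and 920 against 452, 481 and 466. Gnas, the stimulatory alpha subunit, was 1.86-fold higher and Gng2 1.76-fold, while Gpsm1 was 1.85-fold lower. The call of Gng2 was lost without L-GMP array 1 (adjusted p = 0.0525) or GMP array 3 (0.0589). With probe sets that can bind related transcripts left out, Gnas stood for another probe set at a log2 fold change of -0.35, which was not called. Of 50 phosphoinositide enzymes and phospholipases 11 rose and 3 fell, the 3 becoming 1 without GMP array 3. Pld4, an endolysosomal nuclease, was at least 4.77-fold higher, Inpp4a, a phosphoinositide phosphatase, 3.33-fold and Pld3 at least 3.09-fold. Plcb2 was 1.97-fold higher, a call lost without any one of L-GMP array 1 and GMP arrays 1 and 2. The count of 11 was 6 without L-GMP array 1 or GMP array 1 and 7 without GMP array 3.

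Tyrosine and MAP kinase phosphatases rose in 10 of 41 cases and fell in 2, with 6 rising without GMP array 2. Dusp22 was 2.87-fold higher and Ptpro, a receptor phosphatase, 2.31-fold, and Ptpra was 1.67-fold higher, a call lost without GMP array 2 (adjusted p = 0.0503) or GMP array 3 (0.0529). Dusp6, which switches off ERK, fell, with signals of 35.2, 17.1 and 24.9 against 145, 251 and 232, at least 3.26-fold. It belongs to the feedback genes that ERK signalling induces, of which 5 of 21 tested fell and 1 rose, with a median of -0.25; the 1 was lost without any one of L-GMP arrays 1 and 2 and GMP arrays 2 and 3. Spred1, an inhibitor of Ras, had 118, 84.3 and 123 against 501, 492 and 496, a fold of 4.65, and Spred2 and the Ras-GTPase activator Nf1 were 2.30-fold and 2.20-fold lower. All 3 GMP arrays lay above all 3 L-GMP arrays in each of these 4 genes, which the choice of genes to name required.

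Receptor tyrosine kinases rose in 6 of 29 cases and fell in 2, the 2 becoming 0 without L-GMP array 1 or GMP array 2 and 1 without any other array. Epha7, an ephrin receptor, had signals of 1498, 1427 and 1709 against 105, 106 and 129, a fold of 13.7 (log2 3.77, SE 0.18, adjusted p = 3.09e-07). Epha3, Mst1r, the receptor of macrophage-stimulating protein, and Igf1r were 2.33-fold, 2.10-fold and 2.08-fold higher. Kit, the receptor of stem cell factor, had signals of 614, 587 and 771 against 861, 778 and 809, which did not pass the test (adjusted p = 0.247). Among 45 semaphorin, plexin and other guidance genes 6 rose and 1 fell, 2 without L-GMP array 2: Plxnd1, a semaphorin receptor, was 3.79-fold and Sema4a 2.36-fold higher, and Nrp1 was the gene that fell with all arrays.

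Receptors for soluble factors moved in both directions. Of 76 G-protein-coupled receptors 8 rose and 8 fell, with Adgre1 the largest rise at 8.17-fold. Ptger4, a receptor for prostaglandin E2, had signals of 194, 48.6 and 66.1 against 1020, 870 and 813, at least 9.65-fold lower, and the acid-sensing Gpr65 had 66.3, 82.0 and 78.0 against 416, 345 and 352, a fold of 4.93. Without L-GMP array 1 or GMP array 1 the receptors that fell were 5. Of 27 chemokine and chemokine receptor genes 2 rose and 2 fell, 4 without GMP array 1. Cxcl10, an interferon-induced chemokine, varied among the GMP arrays, with 377, 2643 and 1694 against 165, 89.3 and 80.9 in L-GMP, a fold of 11.2. Ccr2, the receptor that draws monocytes from marrow, had 1437, 1423 and 1389 against 3791, 3442 and 3454, a fold of 2.51. Ccr1 was at least 2.33-fold and Cxcr4, which holds progenitors in marrow, 1.51-fold higher.

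Cytokine receptors changed in few cases. Of 41 interleukin and interleukin receptor genes 4 rose, 2 without any one of L-GMP array 3 and GMP arrays 2 and 3, and 1 fell. Il10rb, shared by the receptors of IL-10 and related cytokines, and Il15 were 2.15-fold and 2.18-fold higher, and Il31ra 1.55-fold. Il6ra, the receptor of interleukin 6, was 1.94-fold lower, with 656, 597 and 418 against 962, 1094 and 1135. Its call was lost without L-GMP array 3 (adjusted p = 0.0733) or GMP array 2 (0.0622) or GMP array 3 (0.0735), and that of Il31ra likewise without any of these 3 arrays. Of 22 TNF superfamily genes 3 rose and 3 fell: Tnfrsf18, a costimulatory receptor, was 3.71-fold, Tnfrsf13b 2.38-fold and Tnfsf14 at least 1.94-fold higher, and Cd27, a marker of multipotent and lymphoid progenitors, was at least 3.05-fold lower with -10.0, -2.92 and 11.3 against 198, 211 and 165. The 3 that fell were 1 without any one of L-GMP arrays 2 and 3 and GMP arrays 2 and 3.

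Among 18 tetraspanins, membrane organizers, 3 rose, 1 without any one of L-GMP array 3 and GMP arrays 2 and 3, and 4 fell. Tspan3 had signals of 234, 256 and 300 against 1416, 1485 and 1492, a fold of 5.59, Tspan13 had 494, 641 and 425 against 2358, 2605 and 2687, a fold of 4.97, and Tspan4 was 2.61-fold lower. The L-GMP arrays lay far below the GMP arrays in these genes. Cd37 was 2.22-fold higher at an adjusted p of 0.0289 and lost its call without any single array of the 6. Of 8 Ly6 and SLAM family genes 1, Cd244a, rose, at 2.65-fold, and 0 fell. Of 107 ion channel genes 13 rose and 2 fell. Kcnn4, a calcium-activated potassium channel of blood cells, had 360, 316 and 386 against 1727, 2525 and 2394, a fold of 6.20, and the ATP-gated P2rx1 had 922, 818 and 887 against 209, 211 and 238, higher in L-GMP with an adjusted p of 1.6e-05 in limma. Kcne3 was at least 2.30-fold and Grina 2.07-fold higher. The count of 13 was 7 without GMP array 3 and 8 without L-GMP array 3.

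Secreted proteins of blood and inflammation were among the large rises. Of 22 complement and coagulation genes 5 rose and 3 fell. Cfp, properdin, which stabilizes the complement convertase, had signals of 1012, 787 and 544 against 86.0, 34.4 and 57.1, at least 10.9-fold higher. Coagulation factors F5, at least 8.31-fold, and F10, 4.82-fold, rose, as did Thbd, thrombomodulin, at 4.36-fold. F13a1, the cross-linking factor made by monocytes, fell, with 1259, 1047 and 1283 against 4689, 4258 and 4045, a fold of 3.63. The 3 L-GMP arrays lay on one side of the 3 GMP arrays in each. For all but F13a1 this follows from the choice of genes to name.

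Of 29 serpin, cystatin and other protease inhibitor genes 7 rose and 4 fell. Slpi, which protects against neutrophil elastase, had 6087, 6409 and 7007 against 571, 422 and 388, a fold of 14.3 (log2 3.84, SE 0.21, adjusted p = 1.01e-06). Stfa3, a cystatin, had 969, 240 and 214 against 15.9, 11.5 and 13.8, at least 5.90-fold higher, and Tfpi2 was 3.63-fold higher. Serpinf1, an anti-angiogenic serpin, had 87.4, 47.9 and 60.9 against 818, 663 and 712, at least 10.4-fold lower. Of 19 galectin and S100 genes 4 rose and 1 fell: Lgals3, galectin-3 of macrophages, had 1970, 1706 and 808 against 489, 172 and 216, a fold of 5.31, and S100a13 was 2.03-fold higher. S100a6 was at least 2.79-fold lower at an adjusted p of 0.0365, a call lost without any one of the L-GMP arrays or GMP array 1.

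Few matrix and junction genes passed the test. Of 56 extracellular matrix genes 5 rose and 3 fell, with Col4a1 3.46-fold and Lamb1, both basement membrane chains, at least 3.44-fold higher. Of 55 cadherin, claudin, gap junction and keratin genes 5 rose and 2 fell: Dsp, desmoplakin, had 3963, 3409 and 3186 against 101, 79.2 and 85.2, a fold of 39.8, and Krt80 and Tjp3 were 3.72-fold and at least 3.67-fold higher. Of 30 metalloprotease genes and inhibitors 1 rose and 2 fell (1 without GMP array 1 or GMP array 3), Ece1 at 1.53-fold higher and Ece2 at 1.63-fold lower; the call of Ece1 was lost without any one of L-GMP arrays 2 and 3 and the GMP arrays. Of 54 genes in the neuropeptide, hormone and growth factor class 5 rose and 5 fell. The falls include Bex1 and Bex4, which entered by symbol and are not ligands. Nrg4, an epidermal growth factor-like ligand, had 1101, 905 and 702 against 218, 200 and 261, a fold of 3.94.

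Pathways named for a single ligand family showed no common direction. Of 41 TGF-beta, activin and BMP pathway genes 4 rose and 7 fell. Smad1, a transducer of BMP signals, had 249, 150 and 147 against 564, 621 and 607, a fold of 3.38, while Id1, an inhibitor of helix-loop-helix factors that BMP induces, had 282, 245 and 205 against 60.1, 65.1 and 65.6, at least 3.76-fold higher. Of 49 Wnt pathway genes 4 rose, 2 without GMP array 2, and 6 fell: Sfrp1, a secreted Wnt antagonist, was 3.61-fold and Bcl9l 2.19-fold lower, and Rnf43, which removes Wnt receptors, at least 3.17-fold and Fzd3, a receptor, 1.63-fold higher. Of 34 Notch pathway genes 5 rose and 1 fell, with Hes6 2.05-fold, Numb 1.64-fold and Ncstn at least 1.55-fold higher. With shared-binding probe sets left out Hes6 was not called (adjusted p = 0.0998). The 1 that fell was 0 to 3 with single arrays left out, at 3 without L-GMP array 1. The Notch count of 5 was 3 without any one of L-GMP arrays 1 and 3 and GMP arrays 2 and 3, and the call of Ncstn was lost without any of the same 4 arrays.

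Of 29 NF-kB pathway genes 3 rose and 1 fell, with the inhibitor Tnip1 1.91-fold and Bcl10 1.68-fold higher and Ripk3, a kinase of necroptosis, 1.67-fold lower. Of 40 genes of cAMP phosphodiesterases, cyclases and protein kinase A 5 rose and 6 fell, the 6 becoming 3 without any one of L-GMP array 3 and GMP arrays 2 and 3. Pde8a, Pkib, Pde6d and Pde1b were 2.42-fold, 2.05-fold, 1.92-fold and 1.70-fold higher. Of 39 Rab GTPases 6 rose and 2 fell, the 6 becoming 3 without GMP array 2 and the 2 becoming 1 without any array except L-GMP array 3. Rab24 was 2.08-fold and Rab4b 1.55-fold higher, and Rab38 was among the genes that were off.

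Transcription factor families lay near or below the background. Of 37 ETS, Irf, Stat and Runx genes 4 rose, 2 without any one of L-GMP array 1 and GMP arrays 1 and 2, and 1 fell, 2 without L-GMP array 1: Ets2 was 2.18-fold and Spi1 2.11-fold higher, and Elk3 1.59-fold lower. Ets1 had 2655, 1202 and 992 against 545, 559 and 709, a fold of 2.45 whose call was lost without L-GMP array 1 (adjusted p = 0.0979) and without any GMP array. Of 58 basic helix-loop-helix genes 9 rose and 5 fell. Mxi1, a Max partner that opposes Myc, had 776, 623 and 636 against 195, 174 and 194, a log2 fold change of 1.85, and Id2, an inhibitor of E proteins, had 553, 249 and 195 against 116, 72.9 and 87.2, a fold of 3.31. Of 56 homeobox genes outside the Hox clusters 5 rose and 3 fell, and Hopx was 2.38-fold and Meis1 4.17-fold higher.

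Of 38 forkhead, Sox and Gata genes 1 rose and 5 fell, the 5 becoming 2 without L-GMP array 1, L-GMP array 3 or GMP array 2 and 1 without GMP array 3. Zfpm1, a Gata cofactor, was 2.14-fold lower and Foxi1 1.54-fold higher. The call of Foxi1 was lost without L-GMP array 1 (adjusted p = 0.0566). Sox4 had 568, 872 and 930 against 1434, 1782 and 1717, a fold of 2.12 at an adjusted p of 0.0468 that was lost without any single array of the 6. Of 27 nuclear receptors 1 rose, 2 without L-GMP array 2, and 2 fell, 1 without GMP array 2 or GMP array 3: Nr3c1, the glucocorticoid receptor, was 1.75-fold higher, Thra 1.80-fold lower and Nr1d2 3.05-fold lower. Without GMP array 2 or GMP array 3 another Nr1d2 probe set stood for the gene, at a log2 fold change of 0.36 or 0.47, which was not called. Of 16 circadian clock genes 1 rose and 2 fell, the 2 becoming 1 without GMP array 2 or GMP array 3. Hlf, a PAR-bZIP factor of stem cells, had 49.3, 61.7 and 87.1 against 257, 222 and 254, at least 3.50-fold lower, and Bhlhe40 was at least 2.47-fold higher, a call lost without any single array of the 6.

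Zinc finger genes fell more often than they rose, with 12 higher and 23 lower of 142. Zfp36l1, which destabilizes mRNAs, was at least 3.04-fold, Zfp326 2.68-fold, Zfp704 2.63-fold and Zfp820 at least 2.29-fold lower. Without GMP array 3 the counts were 7 and 15. Of 12 histone genes 2 rose (0 without L-GMP array 1 or GMP array 3, 1 without any other array) and 0 fell, and no member passed both the test and a 1.5-fold difference with groups apart. H2ac19 was 1.45-fold higher (adjusted p = 0.0324), with another of its probe sets called lower, and H2bc22 had 1412, 1272 and 1085 against 2439, 2115 and 2337, a difference that did not pass (adjusted p = 0.146). It passed in the fit of the 6 arrays alone (adjusted p = 0.0011), without the first cultured array (0.000433) and with array weights (0.00782). The call of H2ac19 was lost without any one of L-GMP arrays 1 and 2 and GMP arrays 1 and 3. Of 27 imprinted genes 3 rose and 4 fell: Grb10, an adaptor that dampens insulin and IGF receptor signals, was at least 4.64-fold, Peg12 at least 3.14-fold and Atp10a at least 2.45-fold lower, while Cdkn1c was at least 6.47-fold higher.

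DNA repair and nuclear transport genes fell more often than they rose. Of 84 DNA repair and checkpoint genes 4 rose and 19 fell. Chek1, a checkpoint kinase, had 944, 750 and 616 against 1306, 1513 and 1517, a fold of 1.90, and the exonuclease Exo1 was 1.89-fold lower. The rises were larger than the falls: Xpc, which finds bulky lesions and is a p53 target, had 2567, 2359 and 3404 against 579, 575 and 542, a fold of 4.85, and Rev1, a translesion polymerase, had 1119, 873 and 885 against 357, 251 and 270, a fold of 3.29. The count of 19 was 9 without GMP array 2 or GMP array 3 and 12 without L-GMP array 2 or L-GMP array 3. Of 53 nuclear transport genes 1 rose, a call lost without any array except L-GMP array 2, and 11 fell, among them the importins Ipo11 (2.58-fold), Ipo4 (1.95-fold) and Ipo5 (1.73-fold) and the pore protein Nup133 (1.64-fold).

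RNA processing genes shifted by little. Of 101 splicing factors 9 rose and 17 fell, and of 36 RNA helicases 4 rose and 6 fell. Prpf8, a core spliceosome protein, was 1.72-fold higher, Rbm42 1.67-fold and Lsm10 1.61-fold, and Rbm38 1.60-fold lower. The helicase Ddx1 was 1.63-fold lower, Ddx49 1.57-fold and Ddx10 1.56-fold, while Dhx38 was 1.56-fold higher. The calls of Ddx10 and Ddx49 were lost without any one of L-GMP arrays 1 and 3 and the GMP arrays, and that of Dhx38 without L-GMP array 1, L-GMP array 2 or GMP array 1. The splicing count of 9 was 3 without GMP array 2 and 5 without GMP array 3 or L-GMP array 3; the 17 became 11 without GMP array 2 or L-GMP array 2 and 10 without GMP array 3. The 4 helicases that rose were 1 without L-GMP array 2 and 2 without any one of L-GMP arrays 1 and 3 and GMP arrays 2 and 3. The helicase count of 6 was 2 without any one GMP array and 3 without L-GMP array 1 or L-GMP array 3. Of 59 translation factors 7 rose and 6 fell, with Eif3h 1.57-fold and Eif4g3 1.61-fold higher, Eif1a 2.21-fold lower and Gspt2 at least 2.40-fold lower.

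Among the mitochondrial import genes, falls outnumbered rises. Nuclear genes encode nearly all mitochondrial proteins, and the import machinery brings them in. Of 41 tested members of this class 20 fell and 0 rose, with a median log2 fold change of -0.32, and 35 of the 41 had a value below 0. Chchd10 and Chchd6, assigned by symbol and not themselves parts of the import machinery, were the 2 members called at least 2-fold lower. Chchd10, a protein of the intermembrane space, had 186, 149 and 203 against 783, 996 and 988, a fold of 5.15 (log2 -2.37, SE 0.17, adjusted p = 5.56e-06 in limma). Hspa9, the matrix Hsp70 that pulls proteins in, had 800, 679 and 810 against 1464, 1466 and 1420, a fold of 1.91, and Timm8a1, a carrier chaperone, was 1.94-fold lower. Chchd6 was 2.63-fold lower, but with probe sets that can bind related transcripts left out it was not called (adjusted p = 0.592). The chaperonin genes Hspd1 and Hspe1, named after their values were seen, were 1.51-fold and 1.90-fold lower. The count of 20 was 13 without GMP array 3 or L-GMP array 3. Without L-GMP array 1, 1 gene of the class was called higher.

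Genes of the citric acid cycle, ketone use and fatty acid oxidation fell in 19 of 69 cases and rose in 1. Pdk1, which restrains pyruvate entry to the cycle, had 2345, 2208 and 2044 against 4058, 4094 and 4275, a fold of 1.89, and Acad9, a complex I assembly factor, was 1.60-fold lower. Acot1, a thioesterase, was at least 3.64-fold and Bdh1, a ketone body dehydrogenase, at least 2.30-fold lower. All 3 subunits of the NAD-linked isocitrate dehydrogenase, Idh3a, Idh3b and Idh3g, were among the genes that fell, as was Sdha of complex II, with 1510, 1442 and 1514 against 1878, 1838 and 1893, a fold of 1.26. These 4 were named after their values were seen. The count of 19 was 12, 11 and 10 without GMP arrays 1, 2 and 3 and 10 without L-GMP array 2.

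Amino acid and lipid enzymes divided. Of 39 polyamine, arginine, tryptophan and branched-chain amino acid enzymes 6 rose and 13 fell: Sat1, which acetylates polyamines, and Ckm, a creatine kinase, were 2.40-fold and 2.30-fold higher, and Kmo of tryptophan breakdown and Nampt, which makes NAD, at least 2.34-fold and 2.31-fold lower. Of 72 phospholipid, sphingolipid and triglyceride genes 13 rose and 9 fell. Fabp5, a fatty acid carrier, had 954, 1054 and 903 against 5578, 5506 and 5540, a fold of 5.72 (adjusted p = 1.63e-08 in limma), Lpcat1, a phosphatidylcholine enzyme, was 4.25-fold and Apoe at least 3.77-fold lower, and Apoc2 2.83-fold higher. The 13 became 8 without L-GMP array 1, GMP array 1 or GMP array 2. Of 97 cytochrome P450, dehydrogenase and glutathione-transferase genes 11 rose and 11 fell, with Cyp4v3 3.15-fold and Akr1e1 2.76-fold lower. Ces1d was at least 3.10-fold higher with 582, 90.1 and 139 in L-GMP, a call lost without L-GMP array 3 or any GMP array. These counts of 11 were 7 and 6 without GMP array 2 and 7 and 7 without GMP array 3.

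Of 43 iron and heme genes 5 rose and 8 fell. Slc25a37, mitoferrin, was 2.43-fold higher, and Cpox, an enzyme of heme synthesis, and Hfe were 2.48-fold and 1.74-fold lower. Of 24 ABC transporters 1 rose and 7 fell, with a median of -0.20: Abca1, the cholesterol exporter, had 78.5, 93.6 and 114 against 198, 155 and 174, a fold of 1.85, and Abcb1b, a drug efflux pump, was 2.80-fold lower, a call lost without L-GMP array 1 (adjusted p = 0.0617) or GMP array 1 (0.0622). Abcc2 was 2.09-fold higher. The 7 became 4 without GMP array 1 and 3 without any one of the other GMP arrays and L-GMP arrays 2 and 3.

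Glycan and secretory pathway genes fell more often than they rose. Of 99 glycosyltransferase and glycan-trimming genes 12 rose and 22 fell, the 22 becoming 13 without GMP array 3. Galnt7 and Galnt3, which start O-glycans, were 3.97-fold and 3.66-fold lower, and B3gnt8 and B4galnt1 4.13-fold and 2.69-fold higher. Of 93 secretory pathway genes 9 rose and 17 fell, the 17 becoming 10, 9 and 7 without GMP arrays 1, 2 and 3 and 9 and 11 without L-GMP arrays 2 and 3. Sec16b, an organizer of ER exit sites, had 526, 614 and 644 against 68.0, 66.2 and 82.7, a fold of 8.24, and Pdia5, a disulfide isomerase, had 22.8, 85.1 and 150 against 612, 536 and 518, at least 5.98-fold lower. Sec24d was 2.65-fold lower and Sec14l1 2.09-fold higher. Of 46 peroxisome and autophagy genes 9 rose and 4 fell, the 9 becoming 5 without GMP array 3. Wipi1 was 4.27-fold higher, but was not called with probe sets that can bind related transcripts left out (adjusted p = 0.350). Pex2 was 1.99-fold higher, and Gabarapl1 and Atg9b 1.93-fold and at least 3-fold lower.

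Of 143 F-box, Trim and Rnf ubiquitin ligase genes 20 rose and 17 fell. Nedd4 had 333, 384 and 562 against 2010, 1730 and 1694, a fold of 4.34, Fbxo21 was 2.09-fold lower and Rnf167 at least 2.42-fold higher. Of 74 E2 enzymes and deubiquitinases 11 rose and 12 fell: Usp10 was 2.21-fold lower and Ube2a, a partner of Rad18, and Usp4 1.69-fold and 1.64-fold higher. Usp24 was 1.64-fold lower, a call lost without any one of L-GMP arrays 2 and 3 and the GMP arrays. The ligase counts fell to 10 without L-GMP array 1 or GMP array 3 for those that rose and to 8 without GMP array 2 or GMP array 3 for those that fell; they were 13 and 12 without GMP arrays 1 and 2 for the first, and 11 and 10 without L-GMP arrays 1 and 2 for the second. The E2 counts were lowest without GMP array 2, at 3 and 5. The first was 5 to 7 without any other array, and the second 6 without L-GMP array 3, GMP array 1 or GMP array 3.

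Of 9 tested guanylate-binding, Gimap and related immune GTPase genes 4 fell, 0 rose and 5 did not pass, with a median of -0.43, and the count stayed at 4 without each array in turn. Gbp7 had 684, 636 and 701 against 1474, 1518 and 1709, a fold of 2.32, Gbp2 was at least 2.61-fold, Ifi47 1.85-fold and Gbp3 1.84-fold lower. Of 25 caspase, granzyme and inflammasome genes 5 rose and 4 fell. Gzmb, granzyme B, had 39.2, 66.8 and 49.3 against 251, 293 and 343, at least 4.59-fold lower. Nlrp3, an inflammasome sensor, was 2.43-fold lower, while Naip2 and Naip5, sensors of bacterial proteins, were 2.40-fold and 2.31-fold higher. The 5 became 3 without L-GMP array 3 or GMP array 3.

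Were changed genes neighbours in the genome? With the tested genes in genome order (GRCm38.p6), 17 runs of 3 adjacent genes were all called in one direction and at least 1.5-fold apart, 10 of them higher and 7 lower in L-GMP. Several runs were gene families. The Fc gamma receptors Fcgr2b, Fcgr4 and Fcgr3 lie at chr1:170960558-171065915, the Gbp7, Gbp3 and Gbp2 genes at chr3:142530336-142638008, and Ifitm2, Ifitm1 and Ifitm3, membrane proteins that restrict viral entry, at chr7:140954837-141010744. Ifitm3 had signals of 182, 101 and 125 against 2202, 2121 and 1890, a fold of 15.6 (log2 -3.97, SE 0.19, adjusted p = 3.91e-07), Ifitm1 was at least 14.4-fold and Ifitm2 1.70-fold lower. Members of such families can share probes.

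Further runs held X-linked and lipid genes. Bex4, Tceal8 and Bex1, related small proteins on the X chromosome at chrX:136138996-136215513, were at least 2.49-fold, 4.74-fold and at least 9.24-fold lower. Scd3 and Scd2, which desaturate fatty acids, and their neighbour Cwf19l1 lie at chr19:44108637-44306864. Scd3 was at least 1.63-fold and Scd2 1.87-fold lower, and Cwf19l1 fell by 0.59 on the log2 scale. The call of Cwf19l1 was lost without any one of L-GMP arrays 2 and 3 and GMP arrays 1 and 3.

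Other runs joined genes of unlike function. Coro1a, an actin regulator of white cells, Gdpd3, a lysophospholipase, and Ypel3 lie at chr7:126699774-126780510. Gdpd3 had 1551, 1559 and 1276 against 257, 230 and 225, a fold of 6.14, Coro1a had 4058, 3588 and 3432 against 1780, 1673 and 1655, a fold of 2.16, and Ypel3 was 1.85-fold higher. Tax1bp3, Ctns and Aspa at chr11:73177083-73326876, Nfe2, Copz1 and Gpr84 at chr15:103248212-103310670 and Zbtb22, Tapbp and Rgl2 at chr17:33916176-33937687 were higher. Nfe2, a factor of megakaryocytes, was 1.56-fold and Tapbp, which loads peptides onto class I molecules, 1.84-fold higher. Fes, a kinase whose arrays overlapped between the groups, with Unc45a and Furin at chr7:80325292-80405441, Map3k11, Kcnk7 and Ehbp1l1 at chr19:5688411-5726576, and Lemd2, AI413582 and Nudt3 at chr17:27189600-27623452 were higher too, as were Cyb5r1, Adipor1 and Rabif at chr1:134405781-134507889 and Ece1, Eif4g3 and Hp1bp3 at chr4:137862237-138244683. Rpp40, Fars2 and F13a1 and Ess2, Dgcr6 and Prodh were lower, as were Ppic, Gramd3 and Phax. With shared-binding probe sets left out Fars2 (adjusted p = 0.903) and Dgcr6 (0.974) were not called. Only 1 run remained with every member at least 2-fold apart, and how many runs another order of genes would give was not tested. In 9 of the 17 runs a member lost its call with an array left out.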

How the data were processed

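The authors deposited one table of array signals, on a linear intensity scale with some negative values. The tool named per the submitters' processing notes is MAS5, version 5, and gene names of probe sets come from the platform's annotation. How MAS5 was set, any later scaling, and how the negative values arose are not stated in the sources used. The method that gave the signals is therefore not settled. Controls (64) were left out. Signals under the 25th percentile of all values, 62.4, were raised to it, and probe sets were kept where at least 3 of the 9 arrays exceeded the 40th percentile, 111. The log2 values of all 9 arrays were fitted with limma 3.58.1 (R 4.3.3), with an intensity trend, 6 residual degrees of freedom and Benjamini-Hochberg adjustment over the 14578 probe sets. A gene was represented by 1 of its probe sets; 20 genes had probe sets called in opposite directions. Of all probe sets, 20393 had 1 symbol, 691 several and 1606 none.

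Classes were assigned by symbol patterns. The samples, lists and classes were chosen with earlier results of these data known; the patterns were corrected for membership before class values were seen. Named genes are, per class, up to 4 called members at least 1.5-fold apart whose groups do not overlap, by size (the 2 with the largest differences where none qualify); genes on or off; members of neighbour runs; called genes among the 100 of highest signal in 1 group only, up to 8 each way; the 3 largest differences each way per signal bin; and a few fixed markers. The script was tested on simulated data. The GMP array titled without a number is called replicate 1. Deviations of same-numbered arrays correlated at 0.04, 0.17 and -0.13, which does not settle whether they are pairs. The labels do not say so, and the arrays were not taken as pairs. Alternatives covered the floor, offset, filter, scaling, arrays in the fit, weights, replicate block, shared-binding probe sets and each array left out.
 A class of genes is not reported here.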

Additional observations from a re-analysis of the deposited data

How the results depend on the processing

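Of 290 named genes, 287 were called, 212 kept their call under all 18 alternatives, 75 lost it under at least 1, and 5 reversed direction. With a floor at the 40th percentile 29 genes were on and 36 off, with the lower group allowed up to the 40th percentile 29 and 32, and with the higher group above the 75th percentile 6 and 11. With log2(signal + 100), 579 probe sets were called at least 2-fold apart, against 971. Array weights gave 2752 probe sets lower. The replicate block, whose numbers are not known to pair the arrays, gave 1916 called probe sets, 1017 higher and 899 lower, against 3777 in the main fit. Leaving out each array gave 2475 to 3100 called, 1311 to 1696 higher, 1164 to 1691 lower, 14 to 20 genes on and 18 to 27 off, with the fewest calls without GMP array 3. Of the 17 neighbour runs, 1 was left when each member had to differ at least 2-fold. For called genes at any fold, an ETS motif was in 20.2% and 18.4%, an AP-1 motif in 5.79% and 6.46%, a C/EBP motif in 33.0% of the lower ones, and a CpG ratio of at least 0.6 in 66.2% and 75.6%. With shared-binding probe sets left out, Dgcr6 stood at a log2 fold change of 0.015, Gnas at -0.35, H2ac19 at -0.75 and Qdpr at 0.023, each through another probe set. Nr1d2 ranged from -1.68 to 0.47 with single arrays left out, at 0.36 without GMP array 2 and 0.47 without GMP array 3, and H2ac19 was -0.11 as a mean over its probe sets. The 6 arrays alone gave 4496 calls, the fit without the first cultured array 4904 and no filter 3178. Signals near the floor bound the folds of dim genes, and 3 arrays a group limit all others.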
